A study of Mus musculus with 12 samples.

Results

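D2.OR is a mouse mammary cancer cell line that grows in 2D culture but hardly expands in Matrigel, and the 6 libraries described here compare D2.OR in 3D with D2.OR in 2D across all genes. They are 6 of the 12 libraries of the series, 3 for each culture. The other 6 come from D2A1, a related line that does expand in Matrigel, grown in the same 2 ways. In 2D the cells grew on plastic. In 3D, single cells were seeded on a layer of growth-factor-reduced Matrigel in medium with a low percentage of horse serum, hydrocortisone, cholera toxin, insulin and dissolved Matrigel (the Matrigel-on-top assay), and RNA of several wells was pooled after the gel had been dissolved in the cold. The labels name no gene change or drug treatment between the groups, the replicate number in the labels is also the batch number, and each batch was sequenced in a lane of its own. D2.OR is 1 line from 1 tumor, so the replicates sample the same cells. The paper states in general that its findings were repeated in biological replicates. It does not describe how the sequenced replicates were grown apart from each other. For the sequenced cells the methods point to a description of 2D seeding in high-glucose DMEM, while 2D cells of other assays were in the 3D medium, so the gel and the additives of the medium, hydrocortisone and cholera toxin among them, cannot be told apart in the values below.

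Matrigel is an extract of basement membrane, rich in laminin and collagen IV, which cells bind through integrins. Dormant tumor cells are alive but out of the cell cycle, and D2.OR cells on Matrigel serve as a model of that state. Cells store fatty acids as triglyceride in lipid droplets that are coated by perilipins, and release them again through lipases for oxidation in mitochondria, a program that PPAR receptors and C/EBP factors control in adipocytes. The other gene group that stands out below is the interferon response, in which STAT2 and IRF9 take part in switching on antiviral and antigen-presentation genes through a promoter element called ISRE.

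Each D2.OR library held between 54374019 and 73325069 expected counts, the read counts per gene that RSEM estimates, and reads of mitochondrial genes made up 1.42% to 2.04% of them. On the first principal component of the 6 libraries (40.1% of the variance), both batch 1 libraries (-67.5 in 2D and -34.2 in 3D) lay apart from the other 4, at 0.639 to 49. Within each batch the 3D library was also above the 2D library on it, with 0.639 and 45.3 (2D and 3D) in batch 2 and 6.84 and 49 in batch 3. The second component (31.1%) separated the cultures, with the 2D libraries at 0.258 to 52.3 and the 3D libraries at -49 to -12.3. The counts of list members past the threshold are therefore given with and without batch 1, to be read against 1.62% of all genes with it and 8.38% without it. Keratin 8 and keratin 18, which mark simple epithelia, were present in every D2.OR library (217 to 1050 and 89.4 to 512 CPM, where CPM is the count scaled to the TMM-normalized library size), while Ptprc, Adgre1, Lyz2, Pecam1 and Cdh5, which define leukocytes and endothelium, were at 0.236 CPM or below. The whole leukocyte list summed to 9.48 to 48.2 CPM, most of it Cd14, and the endothelial list to 0.646 to 1.99 CPM. The fibroblast list was not at background, since Col3a1 reached 1250 to 5780 CPM, and the 9 fibroblast markers summed to 3060 to 6940 CPM in 2D and 1660 to 4840 CPM in 3D. Their part in the results below was not tested.

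Among the 16823 genes that could be tested in D2.OR, the culture moved 273 past the threshold (1.62%, edgeR quasi-likelihood test with a term for the batch, Benjamini-Hochberg adjusted p under 0.05 over all genes). In 3D 141 genes were higher (0.838%) and 132 were lower (0.785%). The rises were larger than the falls, with a median log2-fold change of 1.98 against -0.93, and 70 of the higher but 12 of the lower genes changed by more than 4-fold. The direction was the same in all 3 batches for all 273 genes, which is so for 49.1% of all genes tested, and the 3D and 2D libraries did not overlap for 247 of them (of all genes tested, 10.2% were higher and 12.5% lower without overlap). The 273 were chosen by a test with a batch term on these same libraries, so both counts follow largely from that choice. With library totals alone in place of TMM scaling the split was 160 higher to 73 lower, and with limma on log2(TPM + 0.1) it was 142 to 75. The number called depended on single batches and libraries. It was 1412 of 16842 genes without batch 1 (8.38%, of which 621 higher or 3.69% and 791 lower or 4.7%, with 256 of the 273 among them), 0 without batch 2 (1221 at an unadjusted p under 0.05), 1 without batch 3 (1669 unadjusted), and 20 with all libraries but no batch term. Without single libraries it fell to 5 (2D replicate 2), 8 (2D replicate 3), 2 (3D replicate 2) and 31 (3D replicate 3).

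**Figure D1:**
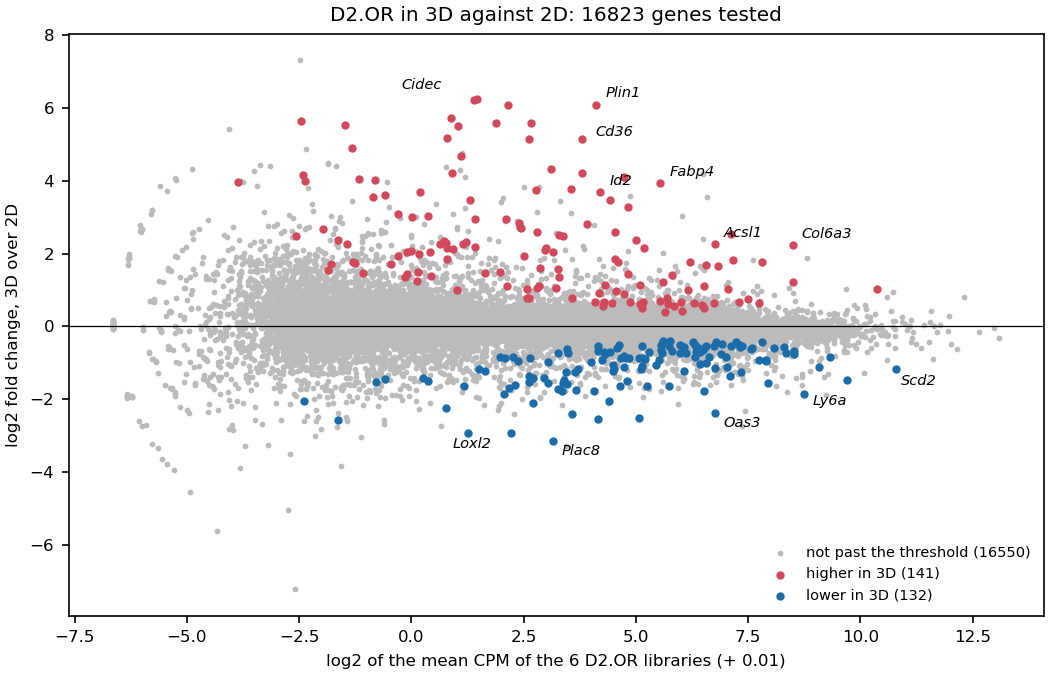
Log2-fold change of each gene tested (3D over 2D in D2.OR, y axis) against the log2 of its mean CPM over the 6 D2.OR libraries (x axis), with the 141 higher genes in red and the 132 lower genes in blue. Most large rises are in genes at low to moderate levels, such as Plin1 at 6.10 and Cd36 at 5.14, while the falls end at -3.14 (Plac8).

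The largest rises were in genes of fat storage. The 10 largest rises were taken from genes past the threshold with the same direction in all 3 batches. A mean of at least 5 CPM in one culture was also required. Of these 10, Adig, Cidec, Plin1, Ces1d, Cd36, Mgll and Cfd are known from adipocytes. There they coat lipid droplets, take up fatty acids or split stored fat, and Cfd encodes the secreted factor adipsin. The remaining 3 were the aldehyde dehydrogenases Aldh3b2 and Aldh1a7 and the uncharacterized A530016L24Rik. These 10 were chosen by their fold change, so their size is a description. In RNA from whole cultures, a change in the number of cells that express a gene and a change of its level per cell cannot be told apart.

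Plin1 (ENSMUSG00000030546.14, chromosome 7, 79720218 to 79732903, GRCm38) encodes perilipin 1, the coat protein of large lipid droplets. Its level in replicates 1, 2 and 3 was 0.159, 1.34 and 0.0996 CPM in 2D, and 5.65, 74.3 and 22.6 CPM in 3D. Every 3D library was above every 2D library, and replicate 2 was the highest in both cultures. The log2-fold change was 6.10 ± 0.43 (edgeR, adjusted p = 0.00143), and 6.29 without batch 1 (edgeR, adjusted p = 0.000787). Here and below, the value after ± is an approximate standard error. It is the size of the log2-fold change divided by the square root of the F statistic of the test, and is unreliable for genes near 0 CPM in a group. Cidec (chromosome 6, 113424634 to 113435760), whose protein fuses lipid droplets, had 0, 0.275 and 0 CPM in 2D and 0.381, 10.1 and 4.84 CPM in 3D. The groups did not overlap, although 3D replicate 1 lay just above 2D replicate 2. Its log2-fold change was 6.23 ± 0.69 (edgeR, adjusted p = 0.00675). Adig, named adipogenin and expressed in fat cells, had 0, 0.177 and 0.0398 CPM in 2D and 0.58, 12.4 and 3.15 CPM in 3D, again without overlap and again highest in replicate 2 (log2-fold change 6.24 ± 0.43, edgeR, adjusted p = 0.0115).

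The fatty acid transporter Cd36 had 0.159, 1.65 and 0.179 CPM in 2D and 1.19, 60.1 and 20.4 CPM in 3D. It rose within each batch, by 2.68, 5.16 and 6.59 on the log2 scale, but 3D replicate 1 was below 2D replicate 2, so the groups overlapped (log2-fold change 5.14 ± 0.57, edgeR, adjusted p = 0.00675). Cfd overlapped in the same way, with 1.24 CPM in 3D replicate 1 and 1.93 CPM in 2D replicate 2 (log2-fold change 4.33 ± 0.28, edgeR, adjusted p = 0.00418). Mgll, the lipase that completes the breakdown of triglyceride, had 0.0797 to 0.884 CPM in 2D and 3.25 to 23 CPM in 3D, and Ces1d, a carboxylesterase that hydrolyzes lipids, had 0 to 0.354 CPM and 0.763 to 32.3 CPM. For both of these every 3D library was above every 2D library. The aldehyde dehydrogenase Aldh3b2 rose from at most 0.373 CPM to 1.77, 18.6 and 5.75 CPM, while Aldh1a7 had its highest values in batch 1 (3.23 CPM in 2D and 78.5 CPM in 3D, against 0.52 and 1.71 CPM in the other 3D libraries).

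**Figure D2:**
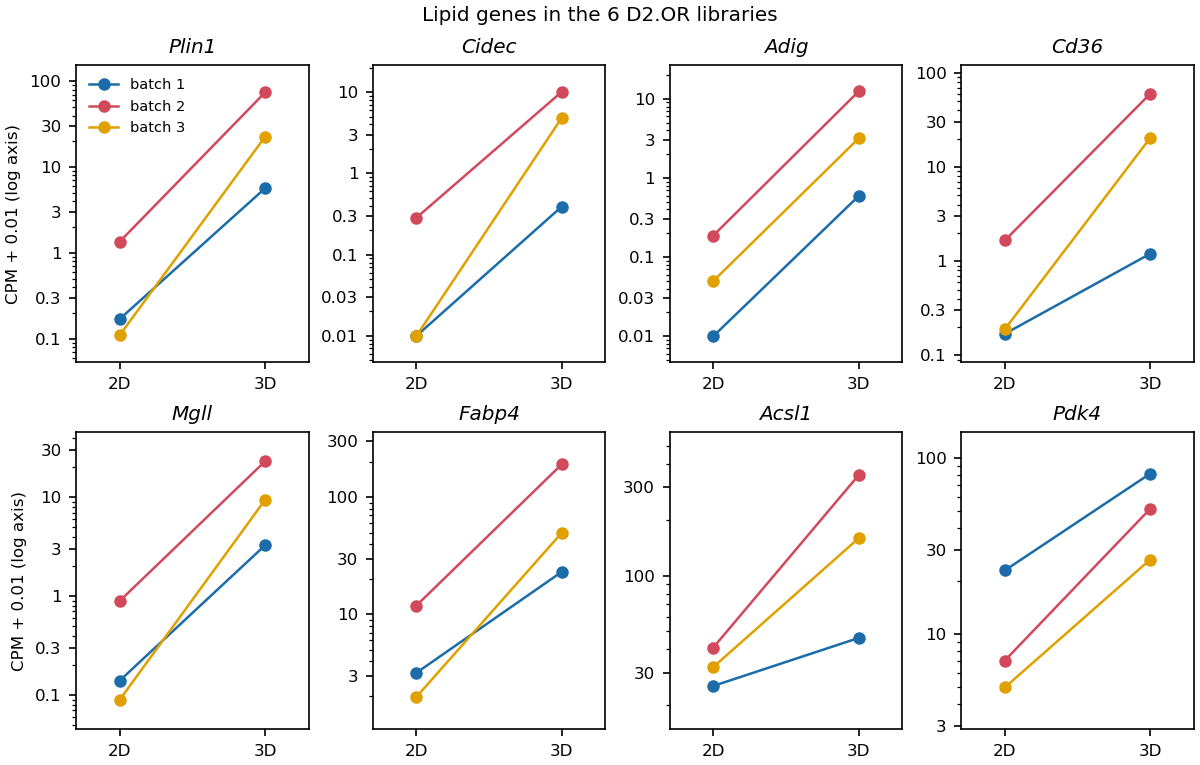
CPM + 0.01 (log axis) of 8 lipid genes in the 6 D2.OR libraries, with a line joining the 2D and 3D library of each batch. All lines go up, the batch 2 libraries are highest for every gene but Pdk4, and the flattest line is that of batch 1 for Acsl1 (0.86 on the log2 scale).

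Of the 8 adipocyte markers listed, 6 passed the filter on low counts and 4 of these rose (Plin1, Cidec, Fabp4 and Cfd), with a median log2-fold change of 4.13 over the 6, beside 0 over all genes. Without batch 1, 6 members were tested and all 6 rose, Pparg among them, while Lep failed the filter in that fit and Adipoq passed it. The summed level of the list was 26.9, 19 and 5.26 CPM in 2D and 45.1, 342 and 102 CPM in 3D. In 2D replicate 1 most of it was Pparg and Lep. Fabp4, the fatty acid carrier of adipocytes, had 3.17, 11.9 and 1.97 CPM in 2D and 23.1, 191 and 49.8 CPM in 3D (log2-fold change 3.94 ± 0.74, edgeR, adjusted p = 0.041). Hormone genes of mature fat cells were at low levels outside batch 1. Adiponectin (Adipoq) had 0 to 0.0982 CPM in 2D and 0.0829, 1.41 and 0.205 CPM in 3D, resistin (Retn) had at most 0.237 CPM, and both were below the filter with all batches. Without batch 1, Adipoq had a log2-fold change of 3.60 (edgeR, adjusted p = 0.0462). Leptin (Lep) was at 5.77 and 3.55 CPM in the batch 1 libraries, and at 0.299 CPM or below in the other 4.

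Pparg, the master regulator of adipocyte genes, had 17.7, 3.3 and 2.79 CPM in 2D and 11, 21.1 and 19 CPM in 3D. It was lower in 3D in batch 1 and higher in the other batches, so its log2-fold change over 3 batches was 1.19 ± 0.92 (edgeR, adjusted p = 0.538) and 2.72 without batch 1 (edgeR, adjusted p = 0.000787). Of 39 genes of lipid droplets, lipid uptake and lipolysis that were listed after their values were seen, 12 rose and 1 fell (Acsl3, edgeR, adjusted p = 0.0453), 10 had a negative log2-fold change, and 28 rose and 1 fell without batch 1. These counts are a description. Lipoprotein lipase (Lpl) had 226, 162 and 160 CPM in 2D and 233, 1180 and 717 CPM in 3D (edgeR, adjusted p = 0.0948, and 0.000793 without batch 1). Pnpla2, which encodes the lipase that opens triglyceride breakdown, had 60.3, 35.8 and 34 CPM and then 54.3, 229 and 116 CPM (edgeR, adjusted p = 0.156, and 0.00816 without batch 1). Its inhibitor G0s2 differed in all batches, from 2.39 to 3.71 CPM in 2D to 8.74, 44.7 and 27.4 CPM in 3D (log2-fold change 2.82 ± 0.45, edgeR, adjusted p = 0.0261). Plin2, which coats droplets in most cell types, had 662, 579 and 723 CPM in 2D and 449, 851 and 1130 CPM in 3D, lower in batch 1 and higher in the others (log2-fold change 0.20 ± 0.21, edgeR, adjusted p = 0.663, and 0.00738 without batch 1).

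Some genes of the fatty acid oxidation list rose too, and more of them without batch 1. Of 39 genes of the list tested, 5 rose and none fell, with a median log2-fold change of 0.25. The members that rose were Pdk4, Acsl1, Mgll, Fabp4 and Ppara, and none of these is an enzyme of the mitochondrial oxidation cycle itself. Pdk4 encodes a kinase that inhibits pyruvate dehydrogenase in mitochondria. It had 22.9, 7.03 and 4.94 CPM in 2D and 81.3, 51.3 and 26.4 CPM in 3D, every 3D library above every 2D library (log2-fold change 2.38 ± 0.24, edgeR, adjusted p = 0.00623). Acsl1, which activates fatty acids with coenzyme A, had 25.4, 40.9 and 32.1 CPM in 2D and 46.1, 348 and 159 CPM in 3D (log2-fold change 2.26 ± 0.42, edgeR, adjusted p = 0.0401). Ppara rose at a low level, from 0.0797 to 0.173 CPM to between 0.398 and 0.457 CPM. The median of the list was -0.12 within batch 1, 0.54 within batch 2 and 0.42 within batch 3, and without batch 1 there were 19 members that rose and none that fell. Among them was Acadm, a dehydrogenase of the oxidation cycle, with 114 and 104 CPM in 2D and 356 and 212 CPM in 3D in batches 2 and 3, but 198 and 195 CPM in batch 1.

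In contrast to storage genes, some genes of fatty acid desaturation and elongation fell. In the list of fatty acid and glyceride synthesis (22 tested), Scd2 and Elovl5 fell and none rose. Scd2, a stearoyl-CoA desaturase, had 2140, 2580 and 2690 CPM in 2D and 1160, 1050 and 1110 CPM in 3D, with no overlap (log2-fold change -1.17 ± 0.18, edgeR, adjusted p = 0.0215). The elongase Elovl5 had 245 to 314 CPM in 2D and 140 to 156 CPM in 3D (log2-fold change -0.93 ± 0.13, edgeR, adjusted p = 0.0147). Scd1, the close relative of Scd2, had 758, 1190 and 1250 CPM in 2D and 465, 3220 and 2300 CPM in 3D, lower in 3D in batch 1 and higher in the other batches (edgeR, adjusted p = 0.451). Without batch 1, 8 members of this list rose and 4 fell. None of the 29 genes of sterol synthesis and uptake passed the threshold (1 rose and 2 fell without batch 1), and 22 of them had a negative log2-fold change, with a median of -0.17.

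Interferon-stimulated genes were lower in 3D almost throughout the list, but few passed the test with all batches. The test estimates the spread of each gene over all 12 libraries, so variation between D2A1 libraries enters the D2.OR p-values as well. Of 37 tested, 36 had a negative log2-fold change, and for 32 all 3D libraries were below all 2D libraries, which held for 12.5% of all genes tested. The median was -1.22, and -1.35, -0.96 and -1.41 within batches 1, 2 and 3. With all batches, Oas3 and Stat2 fell and Ifi27 rose, and without batch 1 there were 32 that fell and 1 that rose. The starting levels differed between batches, since the summed CPM of the list was 12100, 5740 and 6570 in 2D and 4620, 2890 and 2440 in 3D, highest in batch 1 in both cultures. The number of members that fell was 0 without batch 2 and 0 without batch 3. In each of those fits 0 genes of all those tested were lower and at most 1 was higher, so the other lists face the same limit.

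Oas3 encodes a sensor of double-stranded RNA (ENSMUSG00000032661.9, chromosome 5, 120753098 to 120777661). Its level was 305, 95.5 and 131 CPM in 2D and 78, 20.1 and 18 CPM in 3D, so every 3D library was below every 2D library. The log2-fold change was -2.37 ± 0.48 (edgeR, adjusted p = 0.0476), and it passed the threshold in 9 of 24 alternative fits. Stat2, a factor of the interferon signal itself, had 284, 182 and 208 CPM in 2D and 142, 81 and 69.6 CPM in 3D (log2-fold change -1.25 ± 0.24, edgeR, adjusted p = 0.0431), and it also passed in 9 of 24. The regulator Irf7 had 1020, 358 and 490 CPM in 2D and 348, 138 and 134 CPM in 3D, a difference of similar size in each batch, with an adjusted p of 0.186 (edgeR) over 3 batches and 0.00391 without batch 1. Isg15, a ubiquitin-like protein, had 258 to 536 CPM in 2D and 108 to 242 CPM in 3D (edgeR, adjusted p = 0.195, and 0.0098 without batch 1). Ifi27, a small mitochondrial protein in the same list, went the other way, with 37.2, 93.4 and 49.7 CPM in 2D and 111, 141 and 116 CPM in 3D (log2-fold change 1.11 ± 0.22, edgeR, adjusted p = 0.0476).

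Outside the list, some genes known from antiviral defence were picked from the 132 that fell after their values were seen, with no list behind them. Ly6e and Ifitm3, membrane proteins that restrict viruses, had 914 to 1720 and 672 to 830 CPM in 2D against 355 to 561 and 295 to 436 CPM in 3D. Tmem173, which encodes the DNA sensing adaptor STING, fell by 0.84 on the log2 scale (edgeR, adjusted p = 0.0464), and Trex1, a DNase that clears cytosolic DNA, fell by 1.06 (edgeR, adjusted p = 0.0207).

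**Figure D3:**
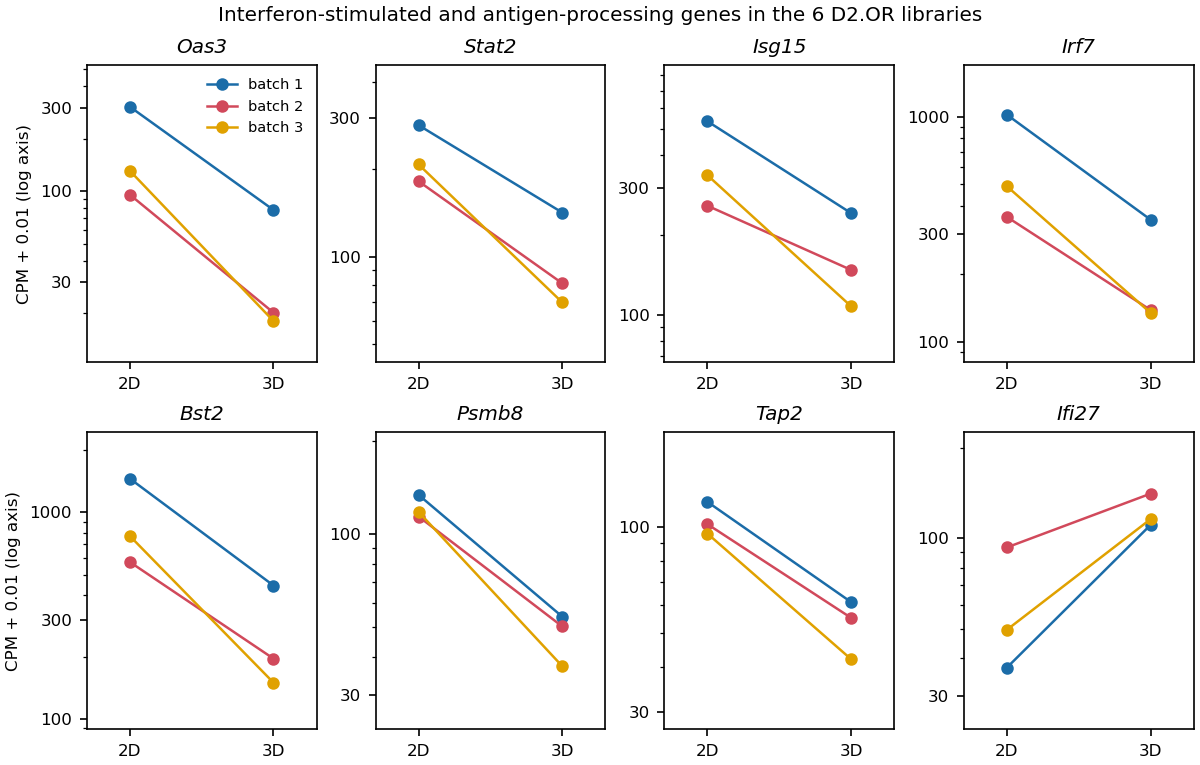
CPM + 0.01 (log axis) of 8 interferon-stimulated and antigen-processing genes in the 6 D2.OR libraries, with a line joining the 2D and 3D library of each batch. All lines go down except those of Ifi27, and batch 1 is highest in both cultures for all but Ifi27.

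None of the 11 genes of MHC class I presentation passed the threshold over 3 batches, but all 11 had a negative log2-fold change (median -0.86), and 10 fell without batch 1. The peptide transporter Tap2 had the smallest p, with 118, 102 and 95.9 CPM in 2D and 61.3, 55.3 and 42.2 CPM in 3D (edgeR, adjusted p = 0.0612, and 0.0135 without batch 1). The proteasome subunit Psmb8 had 114 to 134 CPM in 2D and 37.3 to 54 CPM in 3D (edgeR, adjusted p = 0.0958). The light chain B2m had 1300, 763 and 828 CPM in 2D and 975, 552 and 390 CPM in 3D, where 3D replicate 1 was above 2D replicates 2 and 3.

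Promoters of 3 of these genes are printed to show what lies at the start of the gene with the largest rise and of the 2 interferon-stimulated genes that fell. The sequences are from RefSeq (GRCm38.p6), run from 250 bases before to 50 bases after the start, and read 5′ to 3′ on the strand of the gene, and the choice of Stat2 was made after its values were seen. Capitals mark matches, on either strand, of AGGTCA (a half-site of nuclear receptors such as PPARs) and of an ISRE core, here taken as GAAA followed after any 2 bases by a second GAAA and added after the values were seen.
Adig (chr2:158502362-158502661, plus strand): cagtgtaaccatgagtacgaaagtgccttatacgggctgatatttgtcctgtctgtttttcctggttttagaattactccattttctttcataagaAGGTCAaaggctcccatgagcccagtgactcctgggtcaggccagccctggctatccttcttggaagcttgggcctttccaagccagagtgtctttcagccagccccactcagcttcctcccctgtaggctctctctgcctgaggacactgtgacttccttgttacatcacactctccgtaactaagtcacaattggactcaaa
Oas3 (chr5:120777610-120777909, minus strand): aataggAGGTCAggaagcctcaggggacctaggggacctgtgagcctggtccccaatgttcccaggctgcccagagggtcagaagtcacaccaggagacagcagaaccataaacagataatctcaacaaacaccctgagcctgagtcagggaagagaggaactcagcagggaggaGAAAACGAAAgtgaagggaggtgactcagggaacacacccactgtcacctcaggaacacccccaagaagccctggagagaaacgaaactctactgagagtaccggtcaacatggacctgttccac
Stat2 (chr10:128270248-128270547, plus strand): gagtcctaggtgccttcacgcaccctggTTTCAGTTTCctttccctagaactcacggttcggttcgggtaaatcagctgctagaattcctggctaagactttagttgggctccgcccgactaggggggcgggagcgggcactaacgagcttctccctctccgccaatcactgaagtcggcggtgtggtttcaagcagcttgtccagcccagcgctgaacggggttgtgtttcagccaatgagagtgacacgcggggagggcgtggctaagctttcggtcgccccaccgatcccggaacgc
The Adig window holds 1 AGGTCA, 154 bases before the start, and the Oas3 window holds 1 as well, 244 bases before the start. The ISRE core is found in the Oas3 window 75 bases before the start, and in the Stat2 window on the other strand, 222 bases before it. Among 32851 RefSeq promoters of this length, AGGTCA is in 16.3% and the ISRE core in 3.44%. Of the 10 largest rises 7 have a promoter in the table, and 2 of these 7 hold AGGTCA. Of the 37 interferon-stimulated genes 27 have one, and 14 of these 27 (51.9%) hold the ISRE core. A match says only that these letters are in the window. Of the other motifs searched, TATAAA was in 1 of the 7 promoters of the rises and in 13.6% of all promoters, and CCAAT was in 3 of 7 and in 37.4%. The motif ACGTG was in 1 of 7 and in 19.6%. Among the 27 interferon promoters, TATAAA and TGANTCA were each in 7 (25.9%). The AP-1 site TGANTCA was in none of the 7 and in 7.81%, and the CREB half-site TGACG was in none and in 20.8%.

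Immediate-early genes, the transcription factors that respond first to growth factors and stress, were lower in 3D outside batch 1. Klf6 fell (655, 309 and 420 CPM in 2D, 446, 170 and 224 CPM in 3D, log2-fold change -0.77 ± 0.15, edgeR, adjusted p = 0.0446), and the other 22 genes of the list did not pass the threshold. Batch 1 differed from the others here, since the median of the list was 0.03 within batch 1, -0.65 within batch 2 and -1.13 within batch 3. Nr4a1 had 266 and 229 CPM in batch 1 (2D and 3D), but 128 and 39.8 CPM in batch 2 and 219 and 46.7 CPM in batch 3 (edgeR, adjusted p = 0.106). Without batch 1, 10 of the list fell, among them Nr4a1, Fosb, Jun and Egr1.

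Few genes of cell-matrix contact passed the threshold. Of 19 integrin genes 1 rose, Itga1, whose product binds collagens and laminins, and none fell, while 2 rose and 5 fell without batch 1. It had 9.87, 19.6 and 11.5 CPM in 2D and 70.3, 68.8 and 36.2 CPM in 3D (log2-fold change 2.15 ± 0.27, edgeR, adjusted p = 0.011). The laminin receptor subunit Itga6 was also higher in each batch, from 13 to 29.8 CPM in 2D to 31.3 to 57.3 CPM in 3D, but did not pass (edgeR, adjusted p = 0.159, and 0.0311 without batch 1). Among 24 genes of laminins and basement membrane, Nid2, which links laminin to collagen IV, was the single one to fall (log2-fold change -2.11 ± 0.31, edgeR, adjusted p = 0.0197). Its libraries overlapped, with 20.8 and 5.11 CPM in batch 1 (2D and 3D), 5.93 and 1.58 CPM in batch 2 and 4.78 and 0.882 CPM in batch 3. Without batch 1, 1 gene of that list rose and 5 fell.

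Of 32 interstitial matrix genes, Col6a3 rose and Loxl2 fell. Col6a3, a chain of collagen VI, had 134, 164 and 82.1 CPM in 2D and 634, 765 and 383 CPM in 3D, and its log2 difference was 2.24, 2.22 and 2.22 in the 3 batches (log2-fold change 2.23 ± 0.35, edgeR, adjusted p = 0.0229). Loxl2, an enzyme that crosslinks collagen, had 7.27 to 9.46 CPM in 2D and 0.746, 1.04 and 1.59 CPM in 3D, with no overlap (log2-fold change -2.93 ± 0.43, edgeR, adjusted p = 0.0197). The median of this list was 0.42 within batch 1 but -0.59 and -0.71 within batches 2 and 3, and 1 member rose and 9 fell without batch 1, the falls including Col3a1, Fn1, Tnc and Bgn. The fibroblast markers, which share Col1a1, Col1a2, Col3a1, Dcn and Lum with that list, had medians of 0.76, -0.86 and -1.55 within batches 1, 2 and 3, and none of the 8 tested passed over 3 batches while 4 fell without batch 1. Col3a1 had 2430 and 3850 CPM in batch 1 (2D and 3D), and 5780 and 1790 CPM in batch 2. None of the 26 matrix proteases and inhibitors passed over 3 batches, and 1 rose and 7 fell without batch 1. Outside these lists, the secreted protease Htra1 fell from 334 to 422 CPM to between 85.7 and 181 CPM (log2-fold change -1.55 ± 0.20, edgeR, adjusted p = 0.0115), and the focal adhesion genes Pxn and Src fell by 0.54 and 0.76 on the log2 scale.

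Epithelial junction genes were mostly lower in 3D. Of 27 tested, 2 fell, none rose and 24 had a negative log2-fold change, with a median of -0.61 that was -0.59, -0.71 and -0.49 within the 3 batches, and 5 fell without batch 1. E-cadherin (Cdh1) had 496 and 152 CPM in batch 1 (2D and 3D), 59.5 and 23.7 CPM in batch 2 and 61.3 and 30.6 CPM in batch 3. It was lower in 3D within each batch, although 3D replicate 1 was above 2D replicates 2 and 3 (log2-fold change -1.36 ± 0.21, edgeR, adjusted p = 0.0215). Tjp1, the tight junction scaffold ZO-1, had 325 to 479 CPM in 2D and 230 to 254 CPM in 3D (log2-fold change -0.73 ± 0.12, edgeR, adjusted p = 0.0246). The keratins Krt8 and Krt18 did not pass, although no library overlapped. Krt8 had 893, 724 and 1050 CPM in 2D and 217, 310 and 538 CPM in 3D (log2-fold change -1.31 ± 0.38, edgeR, adjusted p = 0.125, and 0.00436 without batch 1). Of 13 mesenchymal markers and EMT factors none passed (1 rose and 2 fell without batch 1), and vimentin (Vim) had 2600 to 4700 CPM in 2D and 2440 to 4240 CPM in 3D.

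Id2 and Id4, which encode inhibitors of differentiation and are known targets of BMP signaling, rose in 3D. Id2 had 2.7, 2.34 and 2.07 CPM in 2D and 10.2, 36.3 and 56.9 CPM in 3D, with no overlap (log2-fold change 3.69 ± 0.50, edgeR, adjusted p = 0.0138). Id4 had 13.5, 3.1 and 2.53 CPM in 2D and 88, 18.5 and 14.1 CPM in 3D (log2-fold change 2.59 ± 0.36, edgeR, adjusted p = 0.0147). Id1, with 40.9 to 55.6 CPM in 2D and 63.1 to 104 CPM in 3D, lay just outside the threshold (log2-fold change 0.80 ± 0.16, edgeR, adjusted p = 0.0502). Atoh8 and Smad9, also known as BMP targets and picked with Id4 after their values were seen, rose by 1.61 ± 0.16 and 3.02 ± 0.48 on the log2 scale (edgeR, adjusted p of 0.00623 and 0.0246). In the list of TGF-beta and BMP genes, 26 were tested, 2 rose (Id2 and Ltbp2, a matrix protein of the LTBP family) and none fell, with a median of 0.01 and 13 positive and 13 negative values. Without batch 1, 5 rose and 2 fell. The Wnt and Notch lists (28 and 14 tested) had no member past the threshold, and without batch 1 they had 2 that rose and 4 that fell, and 1 of each.

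Rarres1, named for its response to retinoic acid, was with Plin1 the gene with the smallest adjusted p. It had 0.736, 5.78 and 3.37 CPM in 2D and 6.65, 74.2 and 38.6 CPM in 3D, every 3D library above every 2D library (log2-fold change 3.47 ± 0.23, edgeR, adjusted p = 0.00143). Rarres2, which encodes the adipokine chemerin, had 0.765 to 3.3 CPM in 2D and 8.4, 33.7 and 23 CPM in 3D (log2-fold change 3.77 ± 0.42, edgeR, adjusted p = 0.00675). In the list of retinoid and alcohol metabolism (26 tested), Aldh1a7 rose and none fell, and without batch 1 there were 7 that rose. Cyp26b1, which degrades retinoic acid, had 10.3, 14.7 and 12.6 CPM in 2D and 31.3, 42.3 and 53.9 CPM in 3D and did not pass (edgeR, adjusted p = 0.0711, and 0.00861 without batch 1).

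Cell cycle genes were not lower in 3D than in 2D at the level of RNA. None of 42 S phase and 52 G2/M genes passed the threshold, with medians of 0.39 and 0.23, and 39 and 49 of them had a positive log2-fold change. Without batch 1, 1 member of each list rose. Mki67, the gene of the proliferation marker Ki-67, had 112, 222 and 264 CPM in 2D and 190, 319 and 308 CPM in 3D (log2-fold change 0.47 ± 0.33, edgeR, adjusted p = 0.497). It was higher in 3D within each batch, but the groups overlapped. Geminin (Gmnn) had 12.5 to 23.5 CPM in 2D and 13.4 to 23 CPM in 3D, and Cdt1, whose protein geminin inhibits, had 40.3 to 73.6 CPM and 48.4 to 73.8 CPM (edgeR, adjusted p of 0.888 and 0.414).

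None of 27 G1 regulators passed either, and 1 rose and 2 fell without batch 1. The CDK inhibitor Cdkn1b (p27) was slightly lower in 3D, with 95.3, 81.4 and 81.8 CPM in 2D and 68.8, 73.3 and 71.7 CPM in 3D (log2-fold change -0.27 ± 0.20, edgeR, adjusted p = 0.504). Cdkn2a, the gene of p16 and p19ARF, had 116 to 179 CPM in 2D and 109 to 138 CPM in 3D (edgeR, adjusted p = 0.236). Cdkn1a (p21), a p53 target, had 83.2, 22.3 and 28.6 CPM in 2D and 105, 69.9 and 64.3 CPM in 3D. It was high in batch 1 in both cultures, and its log2-fold change was 0.99 ± 0.27 over 3 batches (edgeR, adjusted p = 0.112) and 1.41 without batch 1 (edgeR, adjusted p = 0.00237). Trp53 itself had 1600 to 2250 CPM in 2D and 1260 to 1350 CPM in 3D (edgeR, adjusted p = 0.173), its antagonist Mdm2 had 61.7 to 70.7 and 63.5 to 74.2 CPM, and none of 25 p53 targets passed, while 2 rose and 2 fell without batch 1. These are RNA values, and the paper could not detect p53 protein in D2.OR.

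The lists of dormancy and senescence genes had no member past the threshold over 3 batches. Of 26 dormancy regulators, 10 had a positive and 16 a negative log2-fold change (median -0.18). Nr2f1, a receptor described in dormant tumor cells, had 25.3 to 37.4 CPM in 2D and 20.4 to 32.9 CPM in 3D, and Tgfb2 had 84.1 to 98 and 65.9 to 121 CPM. Sox9 was lower in every 3D library (34.3 to 60.7 CPM in 2D and 19.4 to 27.6 CPM in 3D, edgeR, adjusted p = 0.19). Without batch 1 there were 5 dormancy regulators that fell (Sox9, Ndrg1, Tgfbr3, Txnip and Nr2f1) and none that rose. Of 16 nuclear and lysosomal senescence genes, lamin B1 (Lmnb1) had 44, 71.4 and 93.2 CPM in 2D and 67.4, 113 and 99.2 CPM in 3D, Glb1, the gene of lysosomal beta-galactosidase, had 86.2 to 99.3 and 64.7 to 76.9 CPM, and H2afx had 35.7 to 62.6 and 54.5 to 79.6 CPM (edgeR, adjusted p of 0.573, 0.231 and 0.236). Without batch 1, 2 of the 16 rose and 1 fell. Among 39 secreted factors of the senescence-associated secretory phenotype the median was 0.10, and Hgf, Icam1 and Mif had the smallest p-values. Hgf had 0.635, 31.2 and 37 CPM in 2D and 0.166, 5.6 and 12.7 CPM in 3D (log2-fold change -1.92 ± 0.48, edgeR, adjusted p = 0.0903). Without batch 1, 3 of the secreted factors rose and 7 fell.

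In the metabolic and stress lists few members passed. Of 23 glycolysis genes Hk1 and Tpi1 fell, by 0.59 and 0.57 on the log2 scale (edgeR, adjusted p of 0.0419 and 0.0446), and 20 had a negative log2-fold change, while 1 rose and 6 fell without batch 1. None of 21 hypoxia genes passed over 3 batches, and 8 fell without batch 1. Pyruvate carboxylase (Pcx), which feeds the citric acid cycle and fat synthesis and was named after its values were seen, had 31.8 to 46.8 CPM in 2D and 148, 365 and 205 CPM in 3D (log2-fold change 2.53 ± 0.33, edgeR, adjusted p = 0.0128). Of 34 antioxidant genes, Gpx3 and Gsta3 rose, Gstm2 fell and, without batch 1, 15 rose and 3 fell. Gpx3, a secreted glutathione peroxidase, had 1.89, 2.26 and 2.35 CPM in 2D and 5.12, 7.27 and 15.1 CPM in 3D (log2-fold change 1.94 ± 0.27, edgeR, adjusted p = 0.0157). Among 15 iron genes the importer Slc11a2 and the siderophore carrier Lcn2 rose, and Lcn2 is also in the list of 22 glucocorticoid targets, in which Pdk4 was the other that rose. Without batch 1, 4 iron genes rose and 1 fell, and 5 glucocorticoid targets rose and 3 fell.

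**Figure D4:**
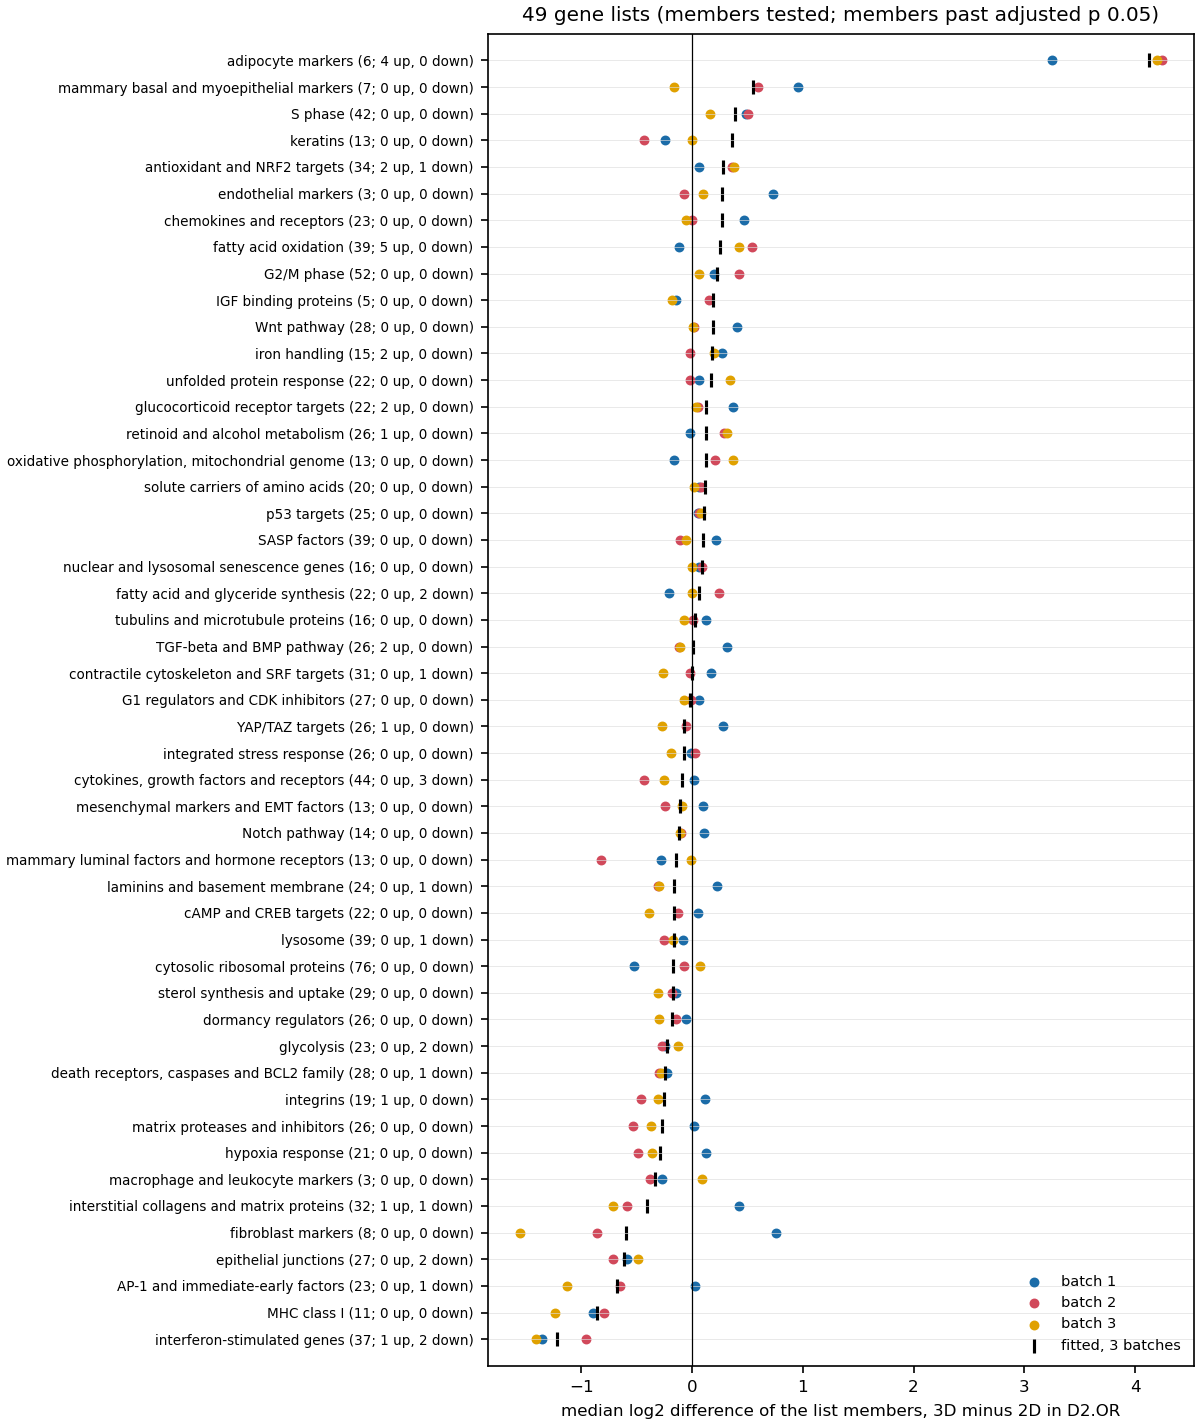
Median log2 difference of the members of each of 49 gene lists, 3D minus 2D in D2.OR, within batch 1, 2 and 3 (dots) and as fitted over the 3 batches (black bars), with the number of members tested and of those past the threshold. Adipocyte markers lie far to the right in each batch and interferon-stimulated genes, MHC class I and junction genes to the left. Batch 1 lies on the other side of 0 from batches 2 and 3 for several lists. These include interstitial matrix, fibroblast markers, integrins, laminins, hypoxia and fatty acid oxidation.

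In the remaining lists, 1 lysosomal gene fell of 39 (Lgmn, an asparagine endopeptidase, log2-fold change -0.92 ± 0.18, edgeR, adjusted p = 0.0442), 3 genes fell of 44 cytokines, growth factors and receptors (Igf2r, Il18 and Fgfbp1), and 1 of 31 contractile genes (Myh10), and 1 gene of 26 YAP/TAZ targets rose (Foxf2). Igf2r, the receptor that sends IGF2 to lysosomes, had 306 to 328 CPM in 2D and 160 to 174 CPM in 3D, a small spread within each culture (log2-fold change -0.94 ± 0.12, edgeR, adjusted p = 0.0115). Of 76 cytosolic ribosomal protein genes none passed, and their median was -0.52 within batch 1, -0.07 within batch 2 and 0.07 within batch 3. Without batch 1, 3 lysosomal, 10 cytokine and 3 contractile genes fell and none rose, 1 YAP/TAZ target rose and 1 fell, and 1 ribosomal protein gene rose.

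The 10 largest falls were chosen by the same rule as the 10 largest rises, with 5 CPM or more in one culture. Of these, Plac8 (ENSMUSG00000029322.12, chromosome 5, 100553725 to 100572245), a cysteine-rich protein, had 33.4, 6.66 and 8.82 CPM in 2D and 1.41, 0.869 and 2.08 CPM in 3D (log2-fold change -3.14 ± 0.43, edgeR, adjusted p = 0.0144). The difference within batch 1 was -4.53 on the log2 scale, against -2.89 and -2.07 in the other batches, and the 2D level was highest there. Clmn, which encodes calmin, had 33.6 to 75.7 CPM in 2D and 7.97 to 12.7 CPM in 3D (log2-fold change -2.51 ± 0.22, edgeR, adjusted p = 0.00418). Ly6a, the stem cell antigen Sca-1, had 587, 654 and 748 CPM in 2D and 112, 169 and 299 CPM in 3D (log2-fold change -1.85 ± 0.24, edgeR, adjusted p = 0.012). The others were Wfdc2, Fgfbp1, Nid2, Medag, Sult5a1, Loxl2 and Oas3, and of these Fgfbp1, Nid2 and Sult5a1 had libraries that overlapped because batch 1 was high in both cultures. Among the 5 further genes with the smallest p, B4galt4, a galactosyltransferase, fell by 1.63 on the log2 scale, while Rarres1, Pdk4, Wfdc21 and Celf5 rose. Celf5, an RNA-binding protein, had 0.12 to 0.177 CPM in 2D and 1.74, 4.95 and 5.77 CPM in 3D (log2-fold change 4.69 ± 0.46, edgeR, adjusted p = 0.00623).

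D2A1 cells were compared with D2.OR to see where the response differs. In D2A1, 586 genes changed in 3D (3.48%), 230 of them higher (1.37%) and 356 lower (2.12%), and 39 genes were past the threshold in both lines, which is 14.3% of the D2.OR calls and 6.66% of the D2A1 calls. Of these 39, 33 had the same direction. Of the 141 genes higher in D2.OR 95 had a positive log2-fold change in D2A1 (median 0.21), and of the 132 lower genes 101 had a negative one (median -0.28), beside 59.4% of all genes with the same sign in both lines. The interaction of line and culture, which tests the difference itself, passed the threshold for 4 genes (0.0238%, or 0.0178% positive and 0.00594% negative), and these were Chst1, Sstr2, Aldh1a7 and Dnajc22.

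Chst1, a sulfotransferase, had 0.0577, 0.295 and 0.199 CPM in 2D and 0.166, 1.01 and 0.725 CPM in 3D in D2.OR, and a mean of 36 CPM in 2D and 13.3 CPM in 3D in D2A1 (interaction 3.18 ± 0.22 on the log2 scale, edgeR, adjusted p = 0.00194). The somatostatin receptor Sstr2 rose in D2.OR from 0.299 to 0.648 CPM to between 0.93 and 1.63 CPM, and fell in D2A1 from a mean of 0.734 CPM to 0.152 CPM (interaction 3.70 ± 0.37, edgeR, adjusted p = 0.0271). Aldh1a7 fell in D2A1 from 35.2, 1.4 and 1.76 CPM in 2D to 8.58, 0.0772 and 0.176 CPM in 3D, highest in batch 1 as in D2.OR (interaction 7.21 ± 0.79, edgeR, adjusted p = 0.0318). Dnajc22, a chaperone cofactor, had 5.61, 7.03 and 8.19 CPM in 2D and 1.77, 2.09 and 2.52 CPM in 3D in D2.OR, and means of 8.74 and 13.2 CPM in D2A1 (interaction -2.27 ± 0.25, edgeR, adjusted p = 0.0318).

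The lipid storage genes did not pass the interaction test, and several of them were near 0 in D2A1. Plin1 had a mean of 0.00542 CPM in 2D and 0.0305 CPM in 3D in D2A1, and the interaction was 3.98 ± 2.64 on the log2 scale (edgeR, adjusted p = 0.447). Fabp4 was measurable in D2A1, with 11.1 CPM in 2D and 6.11 CPM in 3D, and its interaction was 4.83 ± 0.99 (edgeR, adjusted p = 0.0988). The median of the 6 adipocyte markers was 0.18 in D2A1 with none past the threshold. Acsl1 had 30.5 and 26.3 CPM in D2A1, and an interaction of 2.43 ± 0.58 (edgeR, adjusted p = 0.122). Interferon-stimulated genes were lower in 3D in D2A1 too, with 2 of 37 that fell, none that rose and a median of -1.47, and the interaction of Oas3 was -0.44 ± 0.65 (edgeR, adjusted p = 0.745). Id2 rose in both lines, by 3.69 in D2.OR and 2.43 in D2A1. The S phase and G2/M medians were both 0.87 in D2A1 (1 and 4 members that rose), and the interaction for Mki67 was -0.69 ± 0.48 (edgeR, adjusted p = 0.464).

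**Figure D5:**
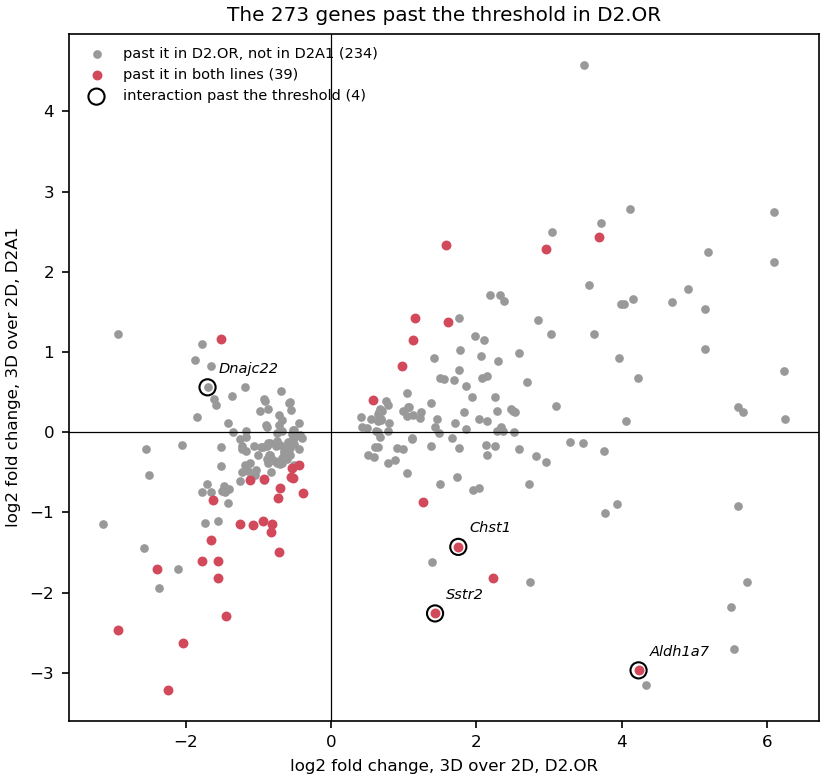
Log2-fold change between 3D and 2D in D2A1 (y axis) against that in D2.OR (x axis) for the 273 genes past the threshold in D2.OR, with the 39 past it in both lines in red and the 4 with an interaction past the threshold circled. Of the 132 genes lower in D2.OR 101 lie below 0 in D2A1 as well, and of the circled genes Chst1, Sstr2 and Aldh1a7 rose in D2.OR and fell in D2A1.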

How the data were processed

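RNA-seq libraries of both lines in each culture were compared, 3 per group. They were made from total RNA, and how mRNA was selected is not given in the sources used here. The authors checked reads with FastQC 0.11.4, trimmed them with Trimmomatic 0.32, aligned them with STAR 2.5.3 to GRCm38 with GENCODE annotation and estimated genes with RSEM 1.3.0. They deposited RSEM expected counts, which are not normalized, and TPM, which the authors scaled within each library. Expected counts were rounded and tested in edgeR 4.0.16 (R 4.3.3) by the quasi-likelihood test with TMM scaling, over all 12 libraries, with 4 groups and the batch as a replicate block. The filter on low counts kept 16823 of 52550 genes. The labels pair each replicate number with the letter B and that number, which the study treats as a batch, and same-numbered libraries of different groups deviated together (r of 0.0758 to 0.511 over 18 pairs, median 0.267, against a median of -0.195 for different numbers). The paper states biological repeats only in general and does not describe the cultures behind these replicates beyond their batch, so p-values measure the spread between these libraries. DESeq2 1.42.0 and limma 3.58.1 on log2(TPM + 1) and log2(TPM + 0.1) were alternatives.

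Named genes were the 10 largest rises and falls with a mean of 5 CPM or more in one D2.OR group, the 5 with the smallest p, members of 49 gene lists that passed or had the smallest p of their list, and genes the study measured otherwise. Others were added after their values were seen, among them the lipid, interferon and BMP genes outside the lists. The members and lists were chosen with earlier results of these data known.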

Additional observations from a re-analysis of the deposited data

Results flagged for a closer look

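The difference between 3D and 2D was itself different in D2.OR and D2A1 for 4 genes, by the interaction test in edgeR. On the log2 scale it was 3.18 for Chst1, 3.70 for Sstr2, 7.21 for Aldh1a7 and -2.27 for Dnajc22 (edgeR, adjusted p of 0.00194, 0.0271, 0.0318 and 0.0318). Chst1, Sstr2 and Aldh1a7 rose in D2.OR and fell in D2A1, while Dnajc22 fell in D2.OR and had an adjusted p of 0.0747 in D2A1. Chst1 and Sstr2 were low in D2.OR, at 1.01 and 1.63 CPM or below in every library.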

How the results depend on the processing

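The count of 273 genes in D2.OR became 20 with no replicate block, which is the same model without pairing by batch, 1174 with the DESeq2 likelihood-ratio test, 415 with no filter on low counts, 159 with at least 10 counts in every library and 809 with the 6 D2.OR libraries alone. Over the fits that left out a batch or a library it ran from 0 to 1412. For D2A1, where 586 genes passed, the values were 52 with no replicate block, 3512 with DESeq2, 1135 with limma on log2(TPM + 0.1) and 1117 with no filter, and 0 to 6120 with a batch or library left out. For the interaction, where 4 genes passed, they were 0 with no replicate block, 944 with DESeq2, 13 and 9 with limma on log2(TPM + 1) and log2(TPM + 0.1) and 96 with no filter, and 0 to 2999 with a batch or library left out. Leaving out a D2A1 library moved the D2.OR count between 103 and 635. The causes were not tested. DESeq2 size factors gave 279 genes in D2.OR and library totals alone gave 233. Among 2361 alternative values of the 100 named genes past the threshold, none reversed its direction and 1441 stayed past the threshold. Over its alternatives the log2-fold change was 3.98 to 6.48 for Plin1, -2.60 to -2.12 for Oas3, 3.10 to 4.35 for Id2 and 0.39 to 2.02 for Ppara. It ran wider for some genes near 0 CPM in 2D, such as 2.14 to 10.03 for Cidec, 2.12 to 8.12 for A530016L24Rik and 1.56 to 6.94 for Krt79.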

Other observations

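The next genes were picked from the rises in D2.OR after their values were seen, and none of the 13 keratins listed passed the threshold (2 fell without batch 1). Krt79, a keratin of hair follicle and sebaceous duct, had a log2-fold change of 5.72, Scel, a component of the cornified envelope, of 2.95, and Sbsn, Trim29 and Grhl1 of 2.34, 2.32 and 2.08 (edgeR, adjusted p of 0.0421, 0.026, 0.011, 0.041 and 0.0187). Neat1, the RNA of nuclear paraspeckles, had 246, 172 and 239 CPM in 2D and 418, 532 and 576 CPM in 3D (log2-fold change 1.23, edgeR, adjusted p = 0.0304).

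Trp53 differed between the lines far more than between cultures. D2.OR libraries had 1260 to 2250 CPM, and the D2A1 means were 16.3 CPM in 2D and 20.8 CPM in 3D. No test of that difference between lines was made.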
